A study of Homo sapiens with 6 samples.

Results

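Enzymes that remove acetyl groups from histones, and enzymes that add or remove histone methyl groups, were examined as a gene group in HEK293T cells after silencing of LOC550643. Its members were the protein-coding genes whose symbol is HDAC or SIRT plus digits, starts with KDM or KMT, or starts with SETD and a digit, together with EZH1, EZH2, EHMT1, EHMT2, SUV39H1, SUV39H2, DOT1L, NSD1, EED and SUZ12. That rule, which uses names only, found 62 genes among 26391 rows. They were 18 deacetylases, 19 demethylases and 25 methyltransferases or partners of these. The silenced group was 3 samples of HEK293T cells, a line derived from human embryonic kidney and expressing SV40 large T antigen, transfected at 50% confluency with a pool of 4 siRNAs against LOC550643. Set against them were 3 samples of the same line transfected in the same way with a non-silencing siRNA, called control siRNA here. RNA was taken 48 hours later and sequenced as poly-A selected libraries. The study asked whether steady-state mRNA levels differ when LOC550643, whose product binds the decapping scaffold EDC4, is silenced. Only 1 pool and 1 control siRNA were used, so off-target effects of either cannot be told apart from loss of LOC550643.

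Acetyl groups on histone tails loosen chromatin, and deacetylases remove them. The zinc-dependent enzymes are grouped into class I (HDAC1, HDAC2, HDAC3 and HDAC8, mostly nuclear), class IIa (HDAC4, HDAC5, HDAC7 and HDAC9, which shuttle between nucleus and cytoplasm), class IIb (HDAC6 and HDAC10) and class IV (HDAC11), while the sirtuins use NAD. Lysine methylation marks active or silent chromatin according to the residue: H3K4, H3K36 and H3K79 methylation lie on active genes, and H3K9 and H3K27 methylation on silent ones. It is laid down by SET domain enzymes and DOT1L, and removed by the flavin-dependent LSD enzymes (KDM1A, KDM1B) and by the JmjC enzymes, which make up most of the other KDM genes.

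Steps in the deposited values give 8604236 to 36082404 read pairs in genes per library. LOC550643 siRNA replicate 3 was the shallowest, and control replicate 2 differed most from the other libraries of its group. Levels are given as CPM, computed from the deposited values with TMM-scaled library totals. LOC550643, listed as LINC01420, stood at 5.85, 5.96 and 5.41 CPM in the LOC550643 siRNA libraries, against 56.2, 50.7 and 51.8 CPM in the control libraries. Markers taken for the line (VIM, NES, NEFL, NEFM, PAX2 and LIN28B) were all above 1 CPM in every library, with summed levels of 1134 to 1266 CPM in LOC550643 siRNA and 1068 to 1152 CPM in control libraries. Of 19 markers of other cell types, COL1A1 and LRP2 were among the few that averaged at least 1 CPM in either group. The 6 kidney tubule and podocyte markers summed to 14.8 to 16.5 CPM in LOC550643 siRNA libraries and 24.55 to 32.3 CPM in control libraries, nearly all of it LRP2, and their part in the results was not tested. Another kidney tubule marker, UMOD, was at 0 in every library, and PTPRC, KRT5 and KRT14 were at or near 0. Over all 16245 genes tested, 17.5% were higher and 18.2% lower after LOC550643 siRNA at a limma adjusted p under 0.05, 35.7% in all.

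Of the 62 genes, 60 were expressed enough to test. The others were KDM4E, at no more than 0.058 CPM in any library and so under the limit of 3 read pairs (0.0812 to 0.357 CPM), and the Y-linked KDM5D. Of the 60, 14 rose and 5 fell (limma adjusted p under 0.05), 31.7% of those tested, a share near the 35.7% of all genes. The genes that rose made up 23.3% of those tested, against 17.5% of all genes, and those that fell 8.33%, against 18.2%. Under scaling by library totals only, the split was 10 higher and 10 lower, beside 2081 and 3976 of all genes tested. With upper-quartile scaling it was 11 and 7, beside 2492 and 3292. Under TMM scaling, 2837 of all genes tested were higher and 2956 lower. The median log2 fold change (log2 change from here on) was 0.07, beside -0.02 over all genes tested. With library totals alone it was -0.0017, beside -0.095 over all genes tested. Most of the calls were small: 13 of the 19 were by less than 1.5-fold. In CPM the libraries of the 2 groups did not overlap for 28 of the 60 genes (46.7%, against 48.5% of all genes tested). In these bulk samples, fewer cells of a kind and less RNA per cell cannot be told apart.

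The genes called with the largest changes were KDM8 and SETD7 (both higher, about 2.5-fold), then SETD9 (lower), HDAC1, KDM2B and DOT1L (higher). Without control replicate 2 the count was 15 higher and 4 lower, beside 2623 and 2882 of all genes tested. Without control replicate 1 it was 10 and 5 (2151 and 2237), and without control replicate 3 it was 11 and 5 (2494 and 2433). Without LOC550643 siRNA replicate 3 it was 12 and 4 (2452 and 2532). Without replicate 1 of that group it was 12 and 3 (2490 and 2551), and without its replicate 2 it was 10 and 3 (2048 and 2343). Of the 19 genes called, 12 held their call in every alternative computed: HDAC1, HDAC2, KDM2B, KDM4B, KDM4C, KDM5C, KDM8, SETD7, EHMT1 and DOT1L upward, and SETD8 and SETD9 downward.

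**Figure D1:**
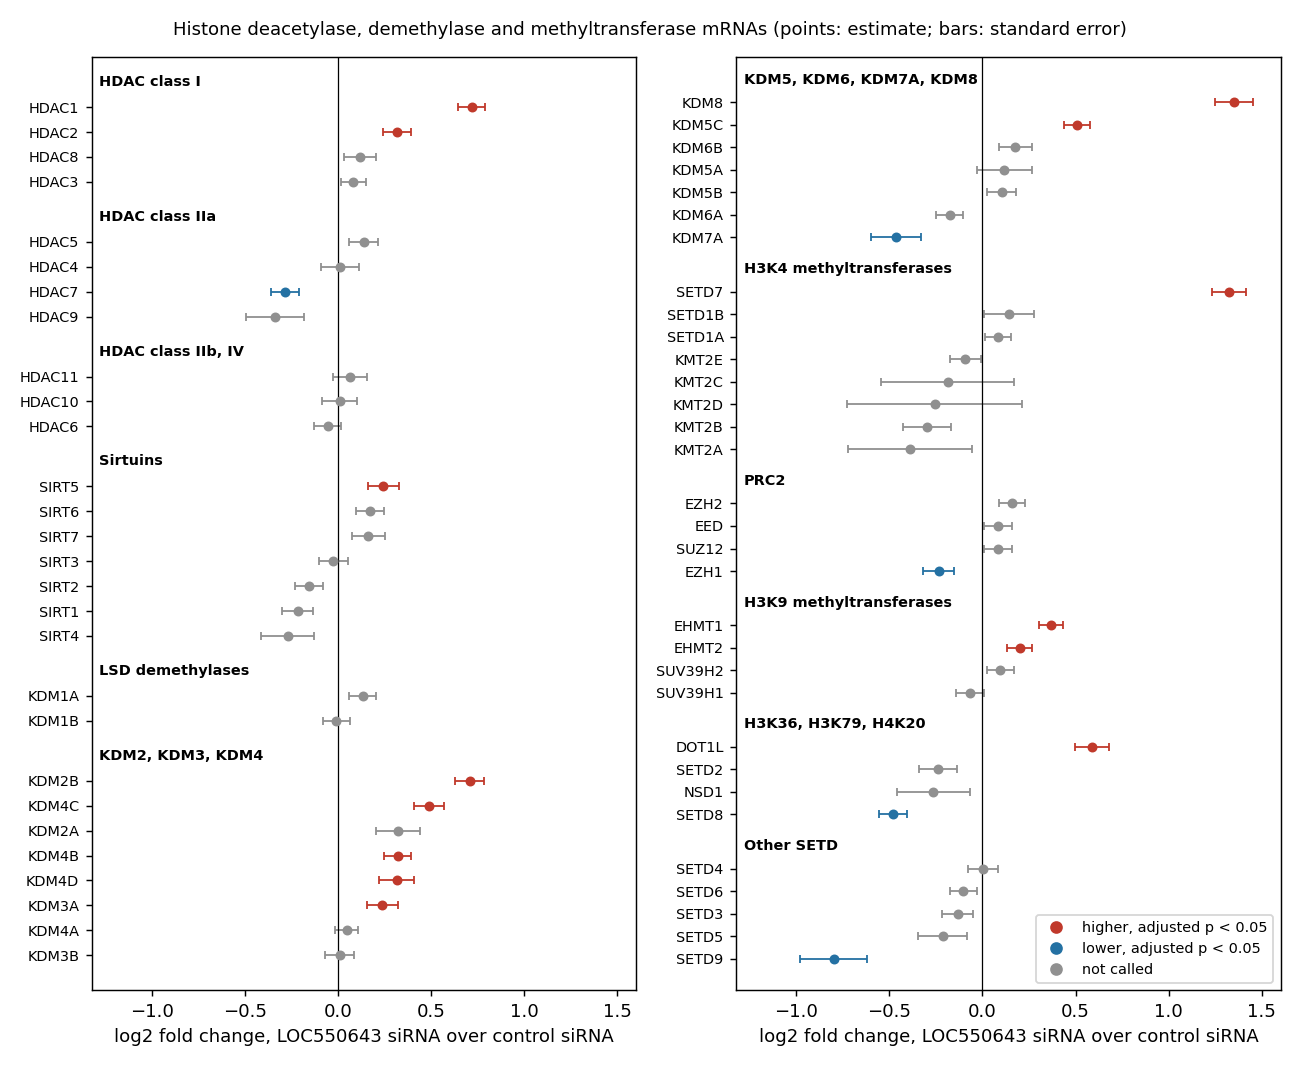
log2 fold change (LOC550643 siRNA over control siRNA; horizontal axis) of the 60 genes tested, in rows grouped by role, with points for the limma estimate and bars for its standard error. KDM8 at 1.35 and SETD7 at 1.32 lie farthest to the right, SETD9 at -0.80 farthest to the left, and KMT2D has the widest bar, at 0.47.

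Promoter sequences are shown for KDM8 (the largest rise), SETD8 (a fall that held in every alternative) and the HDAC1 and HDAC2 pair, as the stretch of 250 bases before the annotated start, from RefSeq on GRCh38.p14. Capitals mark GC boxes (GGGCGG or its reverse CCGCCC, the letters bound by SP1 family factors) and CCAAT boxes (CCAAT or its reverse ATTGG, bound by NF-Y).
KDM8, chr16:27203276-27203525, plus strand: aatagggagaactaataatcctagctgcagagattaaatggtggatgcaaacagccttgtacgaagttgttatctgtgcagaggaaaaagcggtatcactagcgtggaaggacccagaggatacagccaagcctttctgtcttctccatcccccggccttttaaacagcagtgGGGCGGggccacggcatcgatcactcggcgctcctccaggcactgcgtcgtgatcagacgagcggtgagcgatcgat
SETD8, chr12:123383882-123384131, plus strand: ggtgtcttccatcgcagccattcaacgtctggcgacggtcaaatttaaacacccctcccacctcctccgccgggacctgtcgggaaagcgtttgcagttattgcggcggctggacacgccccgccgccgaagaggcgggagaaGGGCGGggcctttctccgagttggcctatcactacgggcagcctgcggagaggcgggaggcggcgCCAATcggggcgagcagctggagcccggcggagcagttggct
HDAC1, chr1:32291833-32292082, plus strand: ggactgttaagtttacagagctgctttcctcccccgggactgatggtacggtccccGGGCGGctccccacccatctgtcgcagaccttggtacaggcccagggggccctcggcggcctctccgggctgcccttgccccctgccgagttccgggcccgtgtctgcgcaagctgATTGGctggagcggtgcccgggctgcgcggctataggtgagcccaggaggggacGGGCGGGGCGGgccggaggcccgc
HDAC2, chr6:113971149-113971398, minus strand: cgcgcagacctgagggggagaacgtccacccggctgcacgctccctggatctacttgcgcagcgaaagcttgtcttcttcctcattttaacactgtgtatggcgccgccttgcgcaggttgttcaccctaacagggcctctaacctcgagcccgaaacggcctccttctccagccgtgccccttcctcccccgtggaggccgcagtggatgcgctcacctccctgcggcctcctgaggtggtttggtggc
HDAC1 holds 3 GC boxes, of which 2 overlap, and 1 CCAAT box, while HDAC2, its closest relative, holds neither in this window. KDM8 holds 1 GC box and SETD8 holds 1 of each. SETD8 is KMT5A in RefSeq, where it has 2 promoters, of which the one listed first is shown.

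Promoters were found for 56 of the genes, 85 windows in all. They were richer in CpG than most, with a median of 23 CpG per window, against 11 over all 35116 RefSeq promoter windows of that length. The GC box stood in 70.6% of the windows, against 42.6% of all promoters. It stood in 72.2% of windows of genes that rose (13 of 18 windows, of 13 genes). Among windows of genes that fell it stood in 77.8% (7 of 9 windows, of 5 genes, with 4 windows of SETD9). For members not called it was 69.0% (40 of 58 windows). The windows of all promoters, of 27305 genes, were not limited to the genes tested. The CCAAT box stood in 34.1% (32.0% of all promoters), the ETS factor letters CCGGAAG in 11.8% (8.52%), the cyclic AMP response core TGACGT in 7.06% (7.10%), the E-box CACGTG in 10.6% (6.34%) and the TATA box letters TATAAA in 1.18% (10.7%), each on both strands. A match is a match of letters and does not show binding.

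HDAC1 and HDAC2, the catalytic subunits of the SIN3, NuRD and CoREST repressor complexes, were both higher after LOC550643 siRNA. HDAC1 (chromosome 1, 32757708 to 32799224, hg19) stood at 359, 402 and 368 CPM in the LOC550643 siRNA libraries, against 239, 226 and 221 CPM in the control libraries. The lowest LOC550643 siRNA library was above the highest control library by a wide margin, and the log2 change was 0.72 (SE 0.072, limma adjusted p = 3.71e-05). HDAC2 (chromosome 6, 114257320 to 114292359) stood at 302, 301 and 298 CPM in the LOC550643 siRNA libraries, against 242, 222 and 262 CPM in the control libraries. Its groups did not overlap either, with a log2 change of 0.32 (SE 0.075, limma adjusted p = 0.00703). The other class I enzymes did not pass: HDAC3, the catalytic subunit of the NCoR and SMRT complexes, was at a log2 change of 0.08 (limma adjusted p = 0.363) and HDAC8, which acts on cohesin, at 0.12 (limma adjusted p = 0.304).

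Among the class IIa, IIb and IV enzymes HDAC7 was the only gene that passed. HDAC7 (chromosome 12, 48176494 to 48213763), a signal-responsive repressor, averaged 51.4 ± 3.32 CPM in LOC550643 siRNA libraries and 62.5 ± 3.05 CPM in control libraries (SD, n = 3 each). Its groups did not overlap and it fell by 0.28 on the log2 scale (limma adjusted p = 0.0135). That call did not hold without LOC550643 siRNA replicate 3 (adjusted p = 0.0537) or control replicate 1 (0.0582). HDAC9 was lowly expressed, averaging 3.29 ± 0.613 CPM in LOC550643 siRNA libraries and 4.13 ± 0.0584 CPM in control libraries. Its log2 change of -0.34 did not pass (limma adjusted p = 0.112), though it did without LOC550643 siRNA replicate 3 (-0.48, 0.0256). HDAC4 and HDAC5 were at 0.01 and 0.14 on the log2 scale. The tubulin deacetylase HDAC6 lay between 147 and 168.5 CPM in LOC550643 siRNA libraries and between 155 and 166 CPM in control libraries (log2 change -0.05, SE 0.073). HDAC10 was at 0.01 and HDAC11 at 0.07 on the log2 scale, and the direction of HDAC4, HDAC10 and HDAC11 turned with library totals alone (-0.064, -0.065 and -0.0099). In the GENCODE annotation HDAC10 shares 55.8% of its exon bases with MAPK12 on the same strand, and HDAC5 shares 24.0% with G6PC3 on the opposite strand, so reads of these genes may be counted for either.

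Among the 7 sirtuins 1 rose and none fell, against 17.5% of all genes tested higher and 18.2% lower. SIRT5 (chromosome 6, 13574859 to 13615390), a mitochondrial enzyme that removes succinyl groups, stood at 26.4, 27.3 and 24.55 CPM in the LOC550643 siRNA libraries, against 23.3, 21.0 and 21.8 CPM in the control libraries. These groups lay close without overlap (log2 change 0.24, SE 0.083, limma adjusted p = 0.0405). The call did not hold without LOC550643 siRNA replicate 1 (adjusted p = 0.0924) or 2 (0.1335), without control replicate 1, 2 or 3 (0.0516, 0.107 and 0.09835), and with library totals (0.125) or upper-quartile scaling (0.0712). SIRT1, the nuclear enzyme that acts on p53 and histones, averaged 55.5 ± 4.35 CPM in LOC550643 siRNA libraries and 64.4 ± 4.49 CPM in control libraries (log2 change -0.22, limma adjusted p = 0.06395), and passed without control replicate 1 (0.0463) and with library totals (0.0171) or upper-quartile scaling (0.0343). SIRT6 and SIRT7, both nuclear, were at 0.17 and 0.16, while SIRT2, SIRT3 and SIRT4, of cytoplasm and mitochondria, were at -0.15, -0.02 and -0.27. SIRT2 passed with library totals (-0.23, adjusted p = 0.0303).

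Of 17 demethylases tested, 7 rose and 1 fell, against 17.5% of all genes higher and 18.2% lower, and their median log2 change was 0.18. Under scaling by library totals only, 5 rose and 2 fell, as KDM3A and KDM4D no longer passed and KDM6A passed as lower. Over all genes, 2081 rose and 3976 fell at that setting, against 2837 and 2956 under TMM scaling. The largest rise of all 60 genes was that of KDM8 (chromosome 16, 27214807 to 27233089), also called JMJD5, a JmjC oxygenase first described as an H3K36 demethylase. KDM8 stood at 16.8, 16.25 and 14.4 CPM in the LOC550643 siRNA libraries, against 6.07, 5.98 and 6.46 CPM in the control libraries. Every LOC550643 siRNA library was above 14 CPM and every control library under 7 CPM, and the log2 change was 1.35 (SE 0.10, limma adjusted p = 6.6e-06). An unnamed noncoding RNA on the opposite strand shares 14.5% of its exon bases, and the counting command shows no strand option. The LSD demethylases did not pass: KDM1A, the H3K4 demethylase of the CoREST complex, averaged 278 ± 16.2 CPM in LOC550643 siRNA libraries and 253 ± 9.69 CPM in control libraries (log2 change 0.13, limma adjusted p = 0.167), and KDM1B was at -0.01.

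Of 8 tested demethylases of the KDM2, KDM3 and KDM4 families, which act on H3K36 and H3K9, 5 rose and none fell. Over all genes tested, 17.5% rose and 18.2% fell. The calls of KDM3A and KDM4D, among the 5, did not hold in every alternative. KDM2B (chromosome 12, 121866900 to 122018920), a CpG island reader that brings Polycomb complexes to DNA, stood at 75.2, 82.1 and 77.2 CPM in the LOC550643 siRNA libraries, against 47.5, 51.5 and 44.8 CPM in the control libraries. It was higher in each LOC550643 siRNA library than in any control library (log2 change 0.71, SE 0.076, limma adjusted p = 5.48e-05). Its paralog KDM2A was at 0.32 and did not pass (limma adjusted p = 0.0553). Control replicate 2, at 85.7 CPM of KDM2A against 68.0 and 58.95 CPM in the other control libraries, lay within the LOC550643 siRNA range of 80.1 to 94.35 CPM. Without that library KDM2A stood at 0.46 and passed (adjusted p = 0.00251), as it did with DESeq2 (0.31, 0.0313) and with length and GC trends removed (0.41, 0.00019).

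KDM4C and KDM4B, which act on trimethylated H3K9 and H3K36, rose. KDM4C (chromosome 9, 6757641 to 7175648) stood at 29.1, 32.0 and 33.5 CPM in LOC550643 siRNA libraries, against 22.03, 22.2 and 23.1 CPM in control libraries (log2 change 0.49, SE 0.082, limma adjusted p = 0.000888). KDM4B (chromosome 19, 4969124 to 5153608) stood at 86.9, 90.25 and 81.7 CPM in LOC550643 siRNA libraries, against 70.4, 72.6 and 64.4 CPM in control libraries (0.32, SE 0.074, limma adjusted p = 0.00595). For both, all LOC550643 siRNA libraries exceeded all control libraries. KDM4D (chromosome 11, 94706845 to 94732676) stood at 17.5, 19.0 and 20.5 CPM in LOC550643 siRNA libraries, against 14.4, 15.04 and 16.2 CPM in control libraries (0.32, limma adjusted p = 0.022), a call that did not hold without LOC550643 siRNA replicate 2 or 3 (0.0625 and 0.0736), without control replicate 1 (0.0935), and with library totals (0.0628). KDM3A, an H3K9 demethylase induced by hypoxia, averaged 74.45 ± 7.54 CPM in LOC550643 siRNA libraries and 62.9 ± 1.93 CPM in control libraries (0.24, limma adjusted p = 0.0431), a call that did not hold without LOC550643 siRNA replicate 2 or 3 (0.132 and 0.151), without control replicate 1 or 3 (0.119 and 0.108), and with library totals (0.142) or upper-quartile scaling (0.065). KDM3B and KDM4A were at 0.01 and 0.05, and at -0.065 and -0.029 with library totals. KDM4A shares 40.2% of its exon bases with an unnamed protein-coding gene on the same strand.

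Among the H3K4 and H3K27 demethylases KDM5C was higher and the other tested members of its family were not called. KDM5C (chromosome X, 53220503 to 53254604) stood at 464, 471 and 442 CPM in the LOC550643 siRNA libraries, against 324, 337 and 307 CPM in the control libraries. The groups were well apart (log2 change 0.51, SE 0.071, limma adjusted p = 0.000286). KDM5A and KDM5B were at 0.12 and 0.10 (limma adjusted p = 0.57 and 0.328). Without control replicate 2, KDM5A was at 0.31 and passed (0.0279). KDM6A, the X-linked H3K27 demethylase, averaged 63.8 ± 1.70 CPM in LOC550643 siRNA libraries and 72.1 ± 4.87 CPM in control libraries (-0.17, limma adjusted p = 0.082), and passed with library totals (-0.25, 0.0195) or upper-quartile scaling (-0.20, 0.0433). Its relative KDM6B was at 0.18 (limma adjusted p = 0.139) and passed without control replicate 2 (0.24, 0.0425) and with length and GC trends removed (0.21, 0.0103). KDM7A (chromosome 7, 139784546 to 139876741), which acts on dimethylated H3K9 and H3K27, stood at 38.0, 32.5 and 43.2 CPM in LOC550643 siRNA libraries, against 47.9, 64.8 and 45.15 CPM in control libraries. Its groups were separated by a narrow gap and it fell by 0.46 on the log2 scale (SE 0.136, limma adjusted p = 0.0206). The call did not hold without LOC550643 siRNA replicate 1 (adjusted p = 0.0515) or 2 (0.0948).

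**Figure D2:**
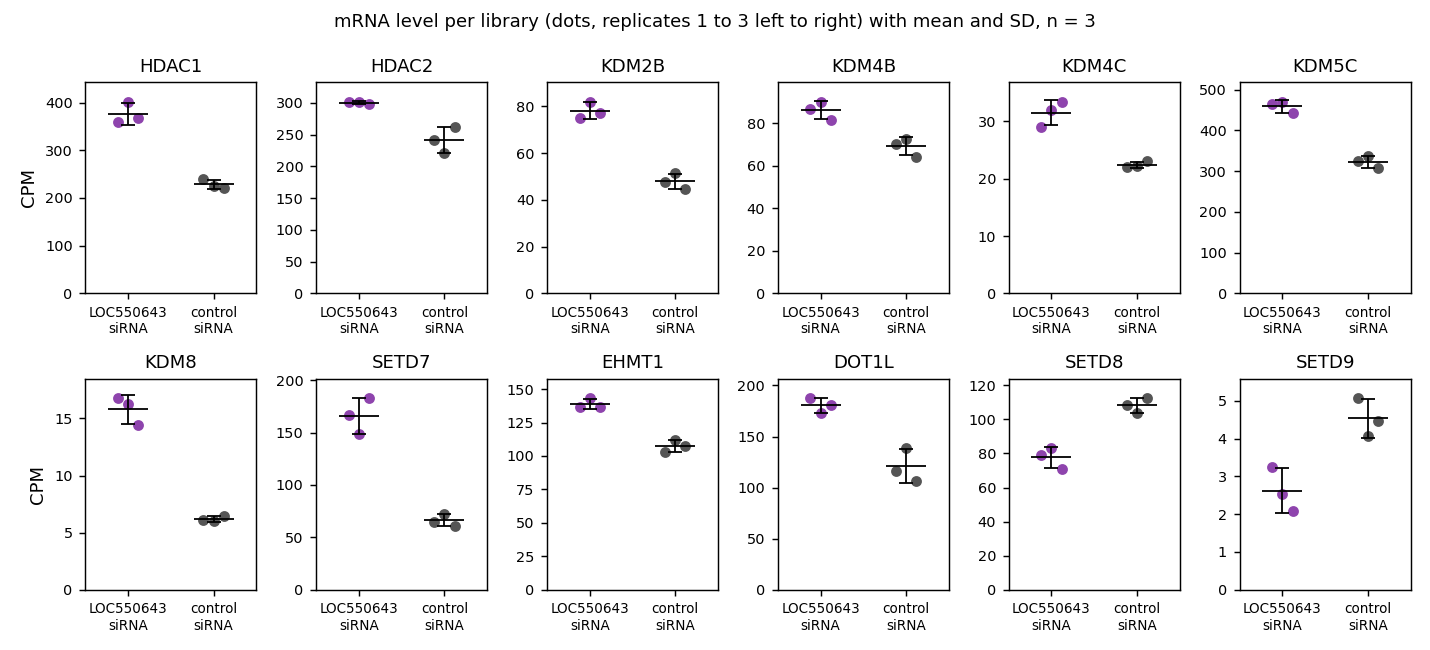
CPM (vertical axes, from 0) of the 12 genes whose call held in every alternative, with dots for the LOC550643 siRNA libraries on the left and the control siRNA libraries on the right, and bars for the mean and SD (n = 3). In 10 panels all LOC550643 siRNA dots lie above all control dots, and for SETD8 and SETD9 they lie below them. These genes were picked by their calls in the same libraries. Among all genes tested, the groups did not overlap for 48.5%.

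Of the 25 methyltransferases and partners tested, 4 rose and 3 fell, while 18 did not pass (the median over all 25 was -0.09 on the log2 scale). Over all genes tested, 17.5% were higher and 18.2% lower. SETD7 (chromosome 4, 140427192 to 140477923), which adds a single methyl group to H3K4 in vitro and to several other proteins, had the second largest rise of the 60 genes. It stood at 167, 148 and 183 CPM in the LOC550643 siRNA libraries, against 64.9, 72.4 and 61.2 CPM in the control libraries. The lowest LOC550643 siRNA library was above the highest control library by more than the spread of either group (log2 change 1.32, SE 0.091, limma adjusted p = 3.68e-06). DOT1L (chromosome 19, 2164148 to 2232577), the H3K79 methyltransferase, stood at 188, 173 and 181 CPM in the LOC550643 siRNA libraries, against 117, 139 and 106.5 CPM in the control libraries. Its groups did not overlap (0.59, SE 0.093, limma adjusted p = 0.00064). On the opposite strand, DOT1L shares 4.605% of its exon bases with PLEKHJ1 and 6.65% with an unnamed noncoding RNA.

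SETD8 (chromosome 12, 123868704 to 123893900), now named KMT5A, which adds the first methyl group to H4K20 and acts in mitosis, was lower. It stood at 78.8, 83.4 and 71.0 CPM in the LOC550643 siRNA libraries, against 108, 104 and 113 CPM in the control libraries. Each LOC550643 siRNA library was below each control library, and it fell by 0.48 on the log2 scale (SE 0.077, limma adjusted p = 0.000678). SETD9 (chromosome 5, 56205087 to 56213165), a little studied SET domain protein, was lowly expressed and stood at 3.25, 2.54 and 2.08 CPM in the LOC550643 siRNA libraries, against 5.07, 4.06 and 4.47 CPM in the control libraries. It fell by 0.80 on the log2 scale without overlap of the groups (SE 0.179, limma adjusted p = 0.00517). The H3K36 methyltransferases SETD2 and NSD1 were at -0.24 and -0.26 and did not pass (limma adjusted p = 0.0911 and 0.319), though SETD2 passed with library totals (-0.31, 0.0391). SETD3, which methylates actin, was at -0.13, SETD4 at 0.0016 and SETD6 at -0.10, and SETD5, expressed well at 244 ± 32.2 CPM in LOC550643 siRNA libraries and 285 ± 57.1 CPM in control libraries, was at -0.21 (limma adjusted p = 0.231). SETD4 turned to -0.074 with library totals, and SETD6 shares 17.5% of its exon bases with CNOT1 on the opposite strand.

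The MLL (KMT2) genes and the SET1 genes SETD1A and SETD1B did not pass, and the spread of KMT2A, KMT2C and KMT2D was wide. KMT2A, KMT2B, KMT2C, KMT2D and KMT2E were at -0.39, -0.30, -0.19, -0.26 and -0.09 on the log2 scale, and SETD1A and SETD1B at 0.08 and 0.14. The SE of KMT2A, KMT2C and KMT2D was 0.33, 0.36 and 0.47, against 0.064 to 0.20 for the other genes of the 60, and without control replicate 2 these genes stood at 0.033, 0.25 and 0.28. KMT2B averaged 80.9 ± 9.87 CPM in LOC550643 siRNA libraries and 100.1 ± 18.9 CPM in control libraries (limma adjusted p = 0.0911) and passed without control replicate 3 (-0.42, 0.0244) and with library totals (-0.37, 0.0488), DESeq2 (-0.30, 0.0478) or length and GC trends removed (-0.22, 0.00815).

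H3K9 methyltransferases of the EHMT type rose and those of the SUV39H type did not pass. EHMT1 (GLP; chromosome 9, 140513444 to 140730578) stood at 137, 143 and 137 CPM in the LOC550643 siRNA libraries, against 103, 112 and 108 CPM in the control libraries, with no overlap (0.37, SE 0.066, limma adjusted p = 0.00135). Its partner EHMT2 (G9a) stood at 148, 155 and 137 CPM in the LOC550643 siRNA libraries, against 129, 127 and 126.5 CPM in the control libraries (0.20, SE 0.069, limma adjusted p = 0.0411). The EHMT2 row is listed at 7 genome positions, and how reads were divided among these is uncertain. Its call did not hold without LOC550643 siRNA replicate 1 (adjusted p = 0.0979) or 2 (0.154), without control replicate 1, 2 or 3 (0.0843, 0.0646 and 0.09765), and with library totals (0.157) or upper-quartile scaling (0.077). SUV39H1 and SUV39H2, which trimethylate H3K9 in heterochromatin, were at -0.07 and 0.10. SUV39H1 shares 21.2% of its exon bases with an unnamed noncoding RNA on the opposite strand.

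In Polycomb repressive complex 2, which methylates H3K27, EZH1 fell and the other genes did not pass. EZH1 (chromosome 17, 40852293 to 40897071), the catalytic subunit common in resting cells, stood at 78.1, 86.4 and 80.1 CPM in the LOC550643 siRNA libraries, against 89.5, 107 and 92.1 CPM in the control libraries. The groups were adjacent without overlap (-0.24, SE 0.082, limma adjusted p = 0.044). The call did not hold without LOC550643 siRNA replicate 1, 2 or 3 (at 0.128, 0.0527 and 0.112 in turn) and without control replicate 2 or 3 (0.0944 and 0.0594). EZH2, the subunit common in dividing cells, stood at 71.45, 72.8 and 78.2 CPM in the LOC550643 siRNA libraries, against 62.9, 69.1 and 67.2 CPM in the control libraries (0.16, limma adjusted p = 0.104). The core subunits EED and SUZ12 were both at 0.08 (limma adjusted p = 0.41 and 0.418).

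The balance within paralog pairs was compared as the ratio of their CPM per kb of exon in each library, over 10 pairs. HDAC1 was above HDAC2 by 3.82, 4.29 and 3.97 times in the LOC550643 siRNA libraries, against 3.17, 3.27 and 2.72 times in the control libraries. In CPM alone the control means were close, at 229 for HDAC1 and 242 for HDAC2. The deposited exon lengths were 2075 and 6669 bases, and the size of this ratio rests on them. Its change between groups does not. Whether the deposited lengths match the transcripts expressed was not tested. EZH2 over EZH1 was 1.57, 1.44 and 1.67 in the LOC550643 siRNA libraries, against 1.20, 1.11 and 1.25 in the control libraries. KDM2B over KDM2A averaged 1.25 ± 0.157 in LOC550643 siRNA libraries and 0.956 ± 0.112 in control libraries (SD, n = 3 each). These ratios, and those of EHMT1 over EHMT2 and KDM1A over KDM1B, did not overlap between groups. Of single genes tested, 48.5% did not overlap either, and ratios of other gene pairs were not computed. Each gave an exact two-sided permutation p of 0.1, the smallest that 3 against 3 allows, and 0.2 after adjustment over the 10 pairs. The ratios of SUV39H1 to SUV39H2, SETD1A to SETD1B, KDM5C to KDM5A, KMT2A to KMT2B and KMT2C to KMT2D overlapped.

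Per kb of exon, HDAC1 was the most abundant of the 60 mRNAs in both groups, at 181 ± 10.9 CPM per kb in LOC550643 siRNA libraries and 110 ± 4.52 CPM per kb in control libraries (SD, n = 3 each). KDM1A followed, at 90.2 ± 5.25 CPM per kb in LOC550643 siRNA libraries and 82.2 ± 3.14 CPM per kb in control libraries. In control libraries HDAC3 (47.3 ± 1.54) and KDM5C (47.3 ± 2.20) came next and were within their spread of each other, while in LOC550643 siRNA libraries KDM5C (67.2 ± 2.22) stood above HDAC3 (50.1 ± 1.88). SETD7 was 43rd in the control order at 9.005 ± 0.778 CPM per kb, against 22.6 ± 2.36 CPM per kb after LOC550643 siRNA, beside DOT1L at 24.4 ± 1.02. KDM8 stood at 6.42 ± 0.513 CPM per kb in LOC550643 siRNA libraries and 2.51 ± 0.103 CPM per kb in control libraries. HDAC9 was the lowest of the 60, at 0.744 ± 0.138 CPM per kb in LOC550643 siRNA libraries and 0.933 ± 0.0132 CPM per kb in control libraries. The order of genes rests on the deposited exon lengths and could change with other lengths.

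**Figure D3:**
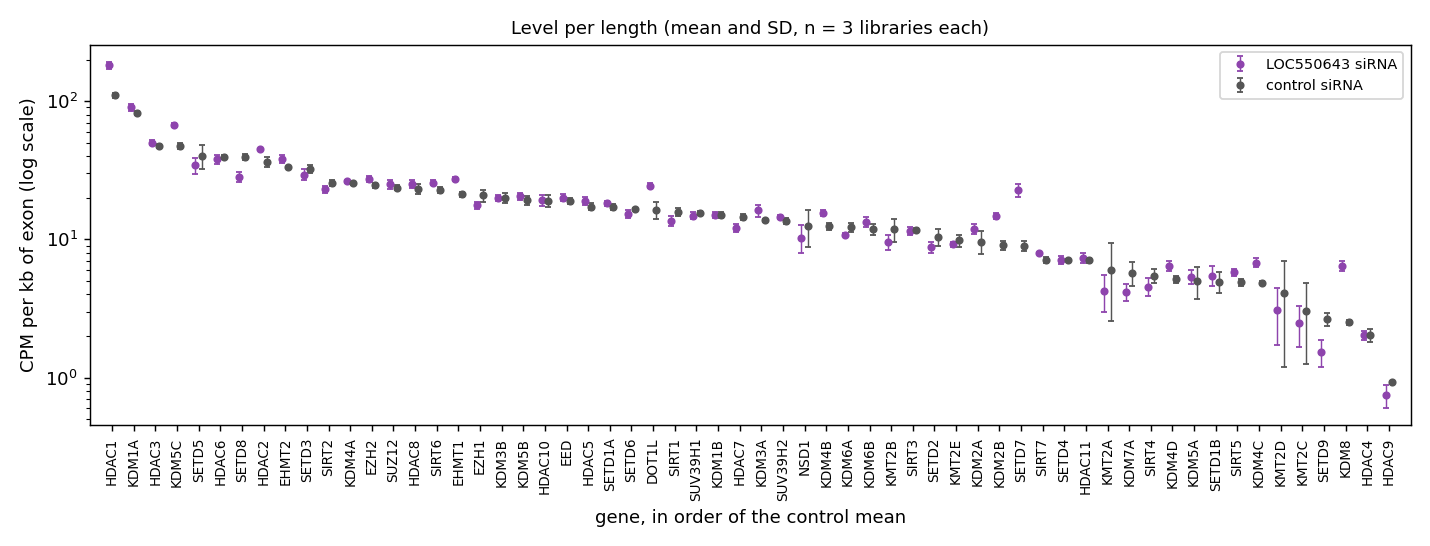
CPM per kb of exon (vertical axis, log scale; mean and SD, n = 3 libraries each) of the 60 genes tested, in order of their control mean, with LOC550643 siRNA left of control siRNA at each gene. HDAC1 leads both groups, and SETD7 and KDM8 show the widest gaps between groups, at 22.6 against 9.005 and 6.42 against 2.51 CPM per kb.

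Many of these mRNAs are long, with a median exon length of 4506 bases, against 2886 over all genes tested, and the long ones moved together between libraries of the same group. KMT2D (19364 bases), the longest, stood at 71.9, 29.4 and 77.6 CPM in the LOC550643 siRNA libraries, against 67.1, 139 and 30.0 CPM in the control libraries. KMT2C (16801 bases) stood at 48.7, 25.7 and 50.0 CPM in the LOC550643 siRNA libraries, against 43.7, 83.5 and 25.3 CPM in the control libraries. KMT2A (16547 bases) stood at 80.0, 45.8 and 84.9 CPM in the LOC550643 siRNA libraries, against 82.5, 162 and 52.4 CPM in the control libraries. In KMT2A, KMT2C and KMT2D alike, LOC550643 siRNA replicate 2 was the lowest of its group, control replicate 2 the highest of its group and control replicate 3 the lowest, so that the spread within a group was wider than the difference between groups.

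Among the 5 genes of 10000 bases or more (KMT2A, KMT2C, KMT2D, NSD1 and KDM5A), the median log2 deviation from the group mean was 0.24, -0.57 and 0.33 in LOC550643 siRNA replicates 1, 2 and 3, and -0.11, 0.87 and -0.76 in control replicates 1, 2 and 3. Among the 9 genes under 2500 bases the medians lay within -0.053 to 0.068. Over all 383 genes tested of 10000 bases or more, the medians had the same signs and, except in control replicate 1, were smaller, at 0.095, -0.29 and 0.20 in LOC550643 siRNA and -0.13, 0.47 and -0.33 in control libraries. Of 26 members of 5000 bases or more, 24 were highest in control replicate 2 among the control libraries, against 8 of 34 shorter ones. That count was not made over all genes. Among all 2865 genes tested of 5000 to 10000 bases, the median deviation in control replicate 2 was 0.10. These length limits were chosen after the values were seen. With trends in length and GC content removed from each library, 20 of the 60 rose and 8 fell. Calls over all genes also grew at that setting, to 3774 higher and 3368 lower, from 2837 and 2956. KMT2C and KMT2D turned to 0.11 and 0.069 without passing. What made long mRNAs vary between libraries was not tested.

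**Figure D4:**
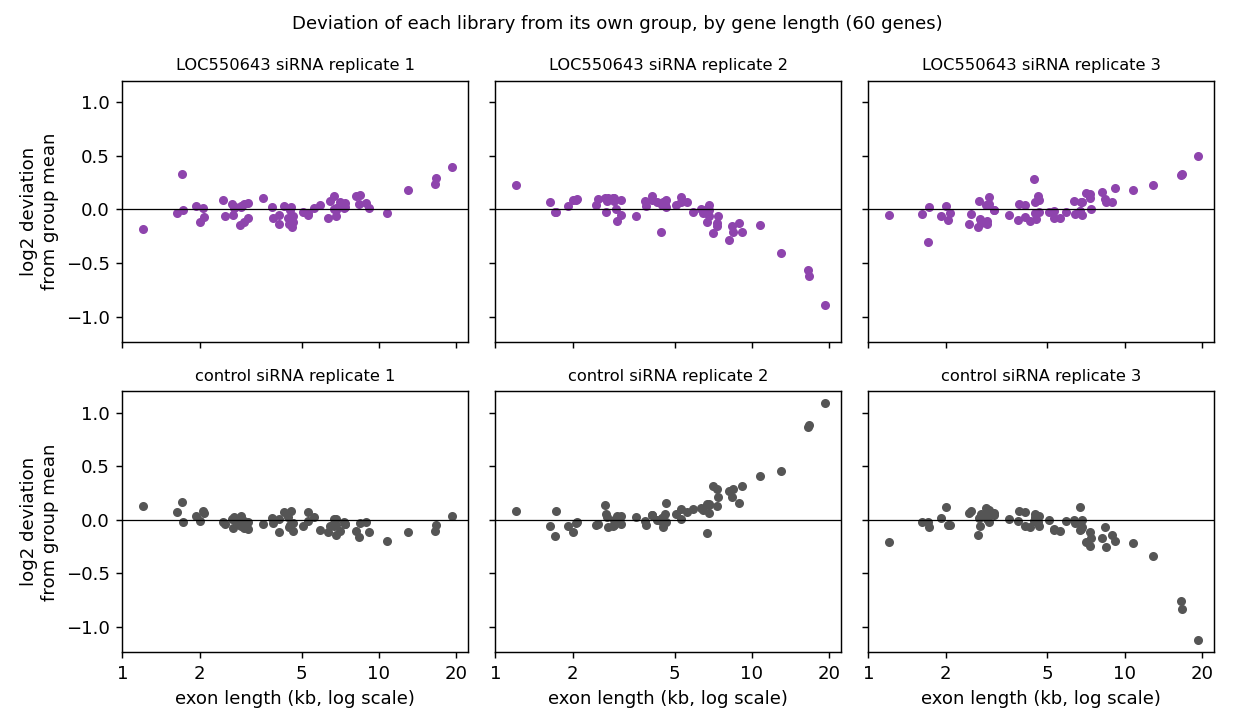
log2 deviation of each library from the mean of its own group (vertical axis) against exon length in kb (horizontal axis, log scale) for the 60 genes, with a panel for each library, LOC550643 siRNA above and control siRNA below. Points right of 10 kb lie below 0 in LOC550643 siRNA replicate 2 and control replicate 3, and above 0 in control replicate 2, where KMT2D reaches 1.09.

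Genes that work with these enzymes were taken from 8 lists, with the 62 genes left out, and their shares called are to be read against the 35.7% of all genes (17.5% higher, 18.2% lower). Of 40 deacetylase complex partners 15 rose and 4 fell (47.5% called, median log2 change 0.15). HMG20B, RBBP7 and MBD2 had the smallest p of these. RBBP7, a histone chaperone of the SIN3, NuRD and Polycomb complexes, stood at 617, 613 and 591 CPM in the LOC550643 siRNA libraries, against 405, 356 and 438 CPM in the control libraries (0.61, limma adjusted p = 0.0003). HMG20B of the CoREST complex rose by 0.49 and MBD2, the methyl-CpG reader of NuRD, by 0.51. Of 15 partners of the MLL and SET1 enzymes 3 rose and 1 fell (26.7% called, median 0.06), with WDR5 at 0.21, PSIP1 at 0.28 and NCOA6 at -0.30. Of 33 Polycomb partners 6 rose and 6 fell (36.4% called, median -0.0009). BCOR and its relative BCORL1, of a KDM2B-containing Polycomb complex, fell by 0.58 and 0.91. BCOR stood at 129, 125 and 133 CPM in the LOC550643 siRNA libraries, against 184, 213 and 181 CPM in the control libraries, while KDM2B moved the other way.

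Of 25 other SET domain and arginine methyltransferases tested, 10 rose and 5 fell (60% called, median 0.10). PRMT1, which makes most asymmetric dimethylarginine, rose by 0.65 and PRMT6 by 0.84, while PRMT5, which makes symmetric dimethylarginine, fell by 0.69. PRMT5 stood at 104, 110 and 96.7 CPM in the LOC550643 siRNA libraries, against 168.6, 160.0 and 172 CPM in the control libraries (limma adjusted p = 4.5e-05). Of 12 other JmjC proteins 3 rose and 3 fell (50% called, median 0.003), with PHF2 at -0.47, TYW5 at -0.46 and JMJD8 at 0.26. Of 33 histone acetyltransferase genes 5 rose and 7 fell (36.4% called, median -0.05), with BRPF1 at 0.55, EPC2 at 0.44 and NCOA1 at -0.67. Of 40 bromodomain and methyl-lysine readers 8 rose and 5 fell (32.5% called, median 0.04), with ZMYND11, a reader of methylated H3K36, at 0.61, CDYL at 0.38 and CHD1, which binds methylated H3K4, at -0.71. Of 14 DNA methylation genes 3 rose, MBD2, MBD1 (0.33) and TDG (0.30), and 1 fell (28.6% called, median 0.05).

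The authors' deposited table, from the same libraries, lists 11 of the 62 genes higher and 4 lower at an adjusted p under 0.05, all 15 of them called here in the same direction. In the authors' deposited table KDM8 stands at a log2 change of 1.38, SETD7 at 1.32 and HDAC1 at 0.72, positive values being higher after LOC550643 siRNA. The 4 calls not shared were KDM3A, EZH1, SIRT5 and EHMT2, with adjusted p of 0.0774, 0.0761, 0.094 and 0.109 in the authors' deposited table.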

How the data were processed

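Members and lists were chosen with earlier results of these data known. Per the labels' protocols, dUTP libraries of poly-A RNA were read as paired 75 base reads, demultiplexed with CASAVA 1.8.2, aligned to hg19 with STAR 2.4.0k and compared with edgeR 3.6.8. Per the file headers, HOMER counted reads over exons, merging the transcripts of a gene, with no strand option shown. The deposited values are a signal: reads per gene that the authors scaled so that each library sums to 29401170 to 29401184. All are whole multiples of 1 step per library (100% within 0.1 step), read here as 1 read end, because 59.2% to 61.0% of those no larger than 40 steps were even. The authors' deposited log2 fold changes and adjusted p-values were only set beside those computed here. Gene length and the number of genome positions were taken from other deposited columns.

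The test was limma 3.58.1 (empirical Bayes, trended prior, two-sided). Values were TMM-scaled and taken as log2(value + 1), where 1 deposited unit is 0.034 CPM. The edgeR filter, at 10 read pairs, kept 16245 genes, with Benjamini-Hochberg adjustment over all of them. Fold changes on this scale understate those of low genes. With edgeR 4.0.16 on the whole reads recovered, rounded to pairs, the calls were 2885 genes higher and 3019 lower. The labels do not name separate passages or days for the replicates. The spread that p-values rest on may therefore be technical. Every pair of replicates differed by more than counting noise (chi-square over its degrees of freedom, 5.32 to 41.6). Limits of 3 read pairs cover counting error only. Genes named are all members, with values in every library for up to 4 with the smallest p in each role and for paralogs of called genes; in related lists, up to 3 called genes with the smallest p. A few genes that these rules or the marker lists name are not reported here. Exon overlaps came from GENCODE release 44 mapped to GRCh37, and promoters from RefSeq. Only some overlaps are named with their genes. KMT2A also shares 18.3% of its exon bases with an unnamed protein-coding gene on the same strand. The method was tested on simulated data with 200 changed genes. The simulated libraries had no shifts by gene length, so that test does not cover such shifts. R 4.3.3 and Python 3.11.15 were used.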

Additional observations from a re-analysis of the deposited data

How the results depend on the processing

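Of 1260 log2 fold changes (60 genes under 21 settings), 1141 had the same direction and the same side of the threshold as reported, 44 lost a call, 33 gained one and 42 turned, none of these being a gene called in the report and none passing when turned. Calls of 12 of the 19 genes held in every setting, and 7 were lost in some. Besides the losses given with each gene, EHMT2, EZH1, KDM3A and SIRT5 lost their call with no filter on low values, EHMT2, KDM3A and KDM4D when libraries were thinned to the shallowest, KDM3A with voom, EHMT2 and SIRT5 with the replicate block in limma, and SIRT5 with the block in edgeR. Calls were gained by EZH2, KDM2A, KDM5A, KDM5B, KDM6B, KMT2B, SETD1B, SIRT1 and SIRT2 with length and GC trends removed (6 of them, without EZH2, KDM5B and SIRT2, also with the replicate block), by KDM2A and KMT2B with DESeq2, and by HDAC9 with voom. SIRT1 also passed with the replicate block in limma (adjusted p = 0.0403) and in edgeR (0.0468). The counts of genes that fell among the 60 were 8 with length and GC trends removed (20 rose), 10 with library totals alone (10 rose) and 2 at an adjusted p under 0.01 (10 rose), and 3 to 5 when a replicate was left out (10 to 15 rose), with 3 without LOC550643 siRNA replicate 1 or 2. The median log2 fold change of the 60 turned to -0.0017 with library totals alone and lay between 0.031 (without control replicate 1) and 0.074 when a replicate was left out. Over all genes, 1770 rose and 1751 fell at an adjusted p under 0.01, against 2837 and 2956 as reported. With length and GC trends removed, 3774 of all genes rose and 3368 fell. When a replicate was left out, 2048 to 2623 of all genes rose and 2237 to 2882 fell. With library totals alone 2081 rose and 3976 fell, with the median of all genes at -0.095, against -0.020 with TMM. The cause of these shifts was not tested. DESeq2 1.42.0 called 15 of the 60 higher and 6 lower, beside 2790 and 2596 of all genes. The edgeR counts were 14 and 5, beside 2885 and 3019 of all genes.

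Turned values lay close to 0 or in the longest genes. With length and GC trends removed, with or without the replicate block, KMT2C stood at 0.11, KMT2D at 0.069, HDAC10 at -0.053 and SETD4 at -0.0032. With library totals alone HDAC4 stood at -0.064, HDAC10 at -0.065, HDAC11 at -0.0099, KDM3B at -0.065, KDM4A at -0.029 and SETD4 at -0.074. Thinned to the shallowest library, HDAC4 stood at -0.036, HDAC10 at -0.024, KDM3B at -0.019 and SETD4 at -0.020. With upper quartile scaling HDAC4 stood at -0.017, HDAC10 at -0.018, KDM3B at -0.018 and SETD4 at -0.027. With a mean of at least 1 CPM required, SETD4 stood at -0.0063. When each replicate was left out in turn, KMT2A ranged over -0.77 to 0.033, KMT2C over -0.60 to 0.25, KMT2D over -0.82 to 0.28, HDAC4 over -0.061 to 0.082, HDAC10 over -0.059 to 0.093, KDM1B over -0.043 to 0.031, KDM3B over -0.034 to 0.069, SETD4 over -0.052 to 0.030 and SIRT3 over -0.063 to 0.032. The cause was not tested.

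Same-numbered libraries of the 2 groups did not deviate together (r of deviations 0.058, -0.283 and -0.120), so the numbers were not taken as pairs. With the replicate block, limma called 12 of the 60 genes higher and 6 lower (2671 and 2718 of all genes). With that block edgeR called 13 and 6 (2715 and 2756 of all genes). Not every library correlated best with the library of its own number. The depth of LOC550643 siRNA replicate 3, 8604236 read pairs, limits what can be detected in lowly expressed genes such as SETD9, HDAC9 and SIRT4.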
